A study of Mus musculus with 2 samples.

Results

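The genes for ADP-ribose transfer and its reversal were followed in 2 single-cell libraries of EMT6 tumors. The 10 genes were taken by symbol from the 55450 genes of the count matrices, as the targets of Olaparib and their relatives: Parp1, Parp2, Parp3, Parp4, Parp8, Parp9, Parp10, Parp12, Parp14 and Parg. The choice went by symbol and not by a measured value, but it was made with earlier results of these data known. All 10 had UMIs in both libraries, as did 29443 genes in at least 1 of them. The tumors were grown by placing 200000 cells of EMT6, a mammary cancer line of the mouse, under the skin of immunocompetent BALB/c animals. Both groups received Olaparib, a PARP inhibitor, at 50 mg/kg daily. Both also received LLY-283, an inhibitor of the arginine methyltransferase PRMT5, at 50 mg/kg in cycles of 3 days on and 4 days off. The Combo group also received an anti-PD-1 antibody, 200 µg every 3 days, and the Olaparib + LLY-283 group did not. Each library held the tumors of 3 mice pooled into 1 sample, and neither library was untreated, so the comparison of the groups concerns the added antibody and no PARP inhibitor effect could be measured.

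PARP proteins use NAD+ to attach ADP-ribose to other proteins and to nucleic acids. Parp1 and Parp2 bind broken DNA and build chains of ADP-ribose that recruit repair factors, and they are the enzymes Olaparib blocks best. Parp3 adds single ADP-ribose units at DNA breaks, and Parg cuts the chains away again. Parp9, Parp10, Parp12 and Parp14 are known as interferon-stimulated genes with roles in antiviral and macrophage responses, and Parp9 works in a complex with the ubiquitin ligase Dtx3l. Parp4 is the PARP of the vault particle, and Parp8 is a less studied family member. Olaparib acts on the protein, while the libraries measured RNA.

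Olaparib + LLY-283 gave 16115 cell barcodes with 147214934 UMIs (unique molecular identifiers, 1 per captured transcript), and Combo gave 7542 barcodes with 162522700 UMIs. After filters, 14165 and 5704 cells were kept. Of the barcode sequences, 39 occurred in both libraries. Cells were put into classes by the UMIs of marker lists that held no PARP gene and not Parg. Tumor-like cells numbered 10683 and 2851, myeloid-like cells 1788 and 2154, lymphoid-like cells 68 and 52 and stromal-like cells 258 and 121, each pair being given for Olaparib + LLY-283 first and Combo second, as in all that follows. The remaining 1368 and 526 cells were left without a class. Myeloid-like cells comprised 894 and 628 macrophage-like and 736 and 1419 neutrophil-like cells, among others. The median depth of a tumor-like cell was 8745 and 46214 UMIs. The tumor-like class rested on keratins: Krt8 stood at 818 and 797 CPM (UMIs per 1000000 UMIs of the class), while the epithelial adhesion genes Epcam, Cdh1 and Cldn7 were at 3.55 and 3.13, 0.089 and 0.104, and 0 and 0.0074. In the myeloid-like class 134 and 143 cells lay within 2-fold of a cut between classes. The myeloid list took a median of 0.022% and 0.042% of the UMIs of a tumor-like cell, against 3.28% and 4.97% in a myeloid-like cell.

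Levels are UMIs of a gene summed over all cells of a class and divided by all their UMIs, as CPM. Ratios between such levels are on the log2 scale, and brackets hold exact 95% intervals, Poisson for a level, Clopper-Pearson for a share of cells and conditional binomial for a ratio. They cover counting error only. A gene was called past the fold where 2 levels differed by over 1.5-fold with at least 20 UMIs over both. With 1 library per group there was no replicate, so no test was made, and the treatment group cannot be told apart from its mice or its library.

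In GENCODE M21 on mm10, Parp1 lies at chr1:180568924-180601254, Parp2 at chr14:50807841-50821301 and Parg at chr14:32201949-32297550. Parp4 also lies on chromosome 14, at chr14:56575619-56659794, and these 4 genes are on the plus strand. Parp14 at chr16:35832874-35871544, on the minus strand, and Parp9 at chr16:35938470-35972605, on the plus strand, are close neighbors. Parp8 is at chr13:116854820-117025537 and Parp12 at chr6:39086410-39118349, both on the minus strand. Of the 10 genes, 3 overlap another protein-coding gene, so their counts are less certain. Parp10 at chr15:76231174-76243441 shares 1401 bases with Plec on the same strand, Parp9 shares 682 bases with Dtx3l on the other strand, and Parp3 at chr9:106470322-106476949 shares 987 bases with Rrp9 on the other strand. The promoters of 7 of the 10 genes were held by the RefSeq table for GRCm38.p6, and those of Parp9, Parp10 and Parp14 were not analysed here.

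3 promoters are shown, as the 250 bases before the gene start and 5′ to 3′ on the strand of the gene, because they set the genes that followed the interferon genes in tumor-like cells against those that did not. Parp12 was of the first kind, and Parp1 and Parp4 of the second. Capitals mark matches to the core of the interferon-stimulated response element, searched as GAAA, any 2 bases and GAAA, and as TTTC, any 2 bases and TTTC, so that both strands were covered.
Parp1 (chr1:180568641-180568890, plus strand): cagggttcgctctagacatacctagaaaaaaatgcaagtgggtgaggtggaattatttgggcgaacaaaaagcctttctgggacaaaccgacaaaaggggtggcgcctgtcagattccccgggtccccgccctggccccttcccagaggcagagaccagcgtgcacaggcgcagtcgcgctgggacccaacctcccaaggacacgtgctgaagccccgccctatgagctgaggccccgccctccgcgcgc
Parp12 (chr6:39118350-39118599, minus strand): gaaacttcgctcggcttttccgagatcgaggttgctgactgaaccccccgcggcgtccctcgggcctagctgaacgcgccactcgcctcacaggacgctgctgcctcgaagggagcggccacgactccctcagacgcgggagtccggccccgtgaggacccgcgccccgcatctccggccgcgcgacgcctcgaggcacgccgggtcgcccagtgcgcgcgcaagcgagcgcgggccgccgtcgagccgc
Parp4 (chr14:56575369-56575618, plus strand): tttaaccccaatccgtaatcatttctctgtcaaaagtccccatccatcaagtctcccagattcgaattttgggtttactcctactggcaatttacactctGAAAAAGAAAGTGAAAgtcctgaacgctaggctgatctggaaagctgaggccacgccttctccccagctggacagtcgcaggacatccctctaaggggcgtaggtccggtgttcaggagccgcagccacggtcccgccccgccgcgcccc
Parp4 held 2 overlapping matches, at positions -150 to -141 and -144 to -135 from the start, and the promoter windows of the 6 other genes, 2 of them for Parg, held 0. Among all 32851 promoters of that length, 978 or 2.98% held a match. The Parp12 window had 41 CpG and a GC content of 73.6%, against 13 CpG and 54.4% for Parp4. A search for E2F sites (TTTCGCGC, TTTGGCGC, TTTCCCGC and their reverse complements) found 0 in the promoters of the 7 genes and 504 of the 32851, or 1.53%. A match is a description of letters and not evidence of binding.

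Between the libraries the 10 genes differed little in tumor-like cells, and none passed 1.5-fold. Over the 17238 genes compared, 8.16% were past that fold higher and 4.92% lower in the Combo library. The median log2 ratio of the 10 was 0.24, and that of all genes 0.06. Parp1, the main target of Olaparib, stood at 38.5 CPM [37.3 to 39.6] under Olaparib + LLY-283 and at 48.0 CPM [46.9 to 49.2] under Combo, a log2 ratio of 0.32 [0.26 to 0.38]. Parp2 stood at 31.7 and 37.4 CPM, a log2 ratio of 0.24, and Parp3 at 22.1 and 25.2 CPM, a log2 ratio of 0.19. Parg, which removes the chains, was at 20.1 CPM [19.3 to 21.0] and 21.1 CPM [20.3 to 21.9], a log2 ratio of 0.07 [-0.01 to 0.15]. The intervals of the ratio were above 0 for Parp1, Parp2 and Parp3 and held 0 for Parg. Counting intervals are narrow at this depth, and the share of all genes with intervals apart from 0 is not given. No contrast between Parg and the other 3 is drawn from this.

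Of the interferon-linked genes, Parp14 was at 23.7 CPM [22.8 to 24.6] and 30.9 CPM [29.9 to 31.8] in tumor-like cells, a log2 ratio of 0.38 [0.31 to 0.45]. Parp10 was at 12.0 and 15.5 CPM, with a log2 ratio of 0.37, and Parp9 at 25.1 and 29.5 CPM, with a log2 ratio of 0.24. Parp12 was at 33.5 CPM in both libraries, with a log2 ratio of -0.00 [-0.06 to 0.06]. The interferon list of 40 other genes summed to 2428 and 2788 CPM, and 4 of the 40 were past the fold, all higher in the Combo library. Parp4 was at 20.3 and 21.0 CPM, a log2 ratio of 0.05 [-0.03 to 0.13], and Parp8 at 15.6 and 18.5 CPM, a log2 ratio of 0.24. Over the alternative ways of processing, Parp14 lay between 0.29 and 0.60, Parp1 between 0.23 and 0.35 and Parp4 between -0.34 and 0.05. A single cluster held 1.01% and 14.5% of the tumor-like cells. Without it the ratio of Parp14 was 0.29 and that of Parp9 0.15, and that of Parp1 was 0.35.

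The plot of levels by cell type and library sets these values beside those of macrophage-like, neutrophil-like and fibroblast-like cells, the last being the main part of the stromal-like class.

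**Figure D1:**
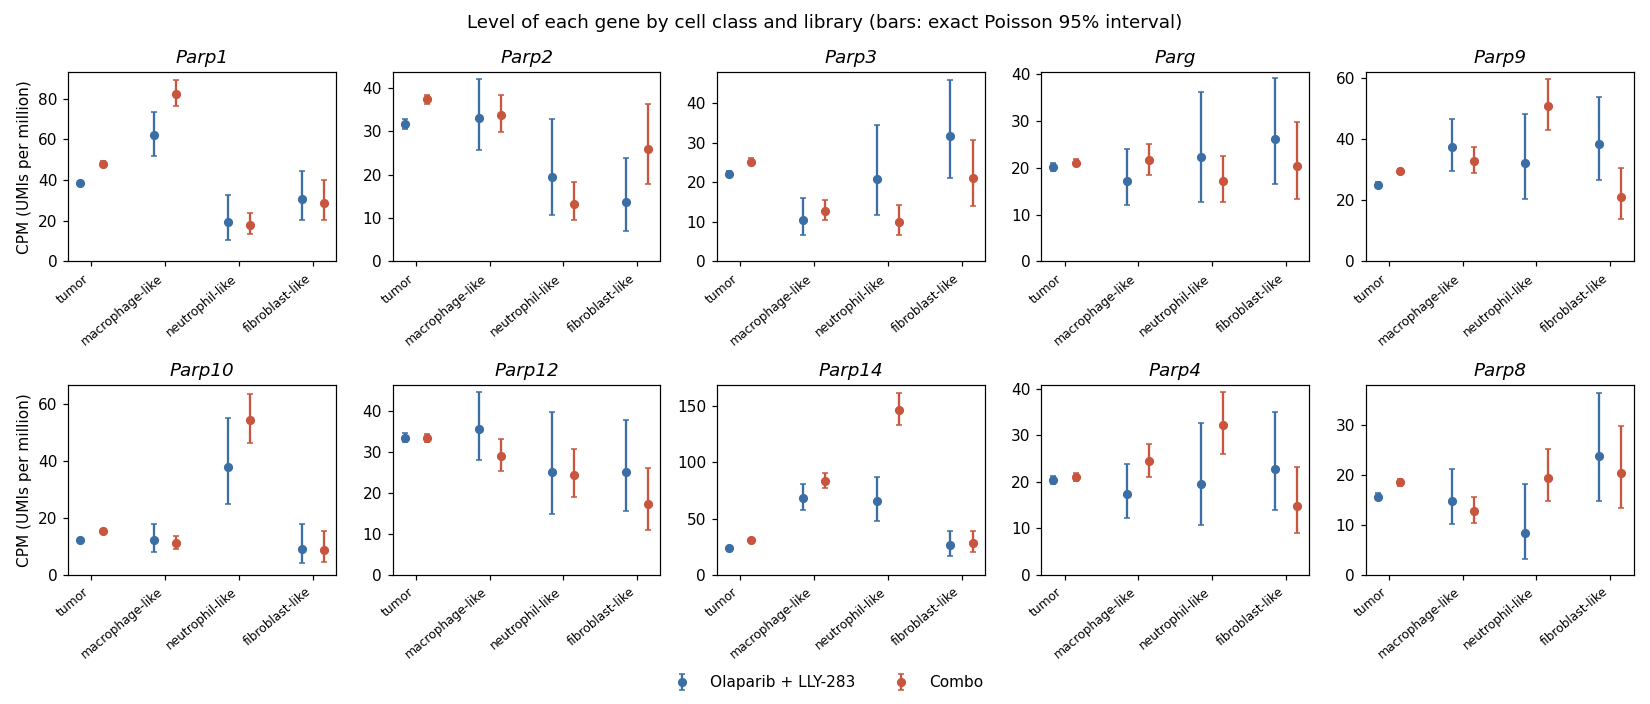
Level of each of the 10 genes, in CPM on a vertical axis that differs between panels, by cell type (tumor-like, macrophage-like, neutrophil-like, fibroblast-like) for Olaparib + LLY-283 and for Combo, 1 library per group, with exact Poisson 95% intervals as bars. Parp14 stands at 65.6 and 147 in neutrophil-like cells, above its tumor-like level of 23.7 and 30.9, and Parp1 stands highest in macrophage-like cells, at 62.0 and 82.5.

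Of 10 genes that work with PARP1, 0 were past the fold between the libraries in tumor-like cells, where the share over all genes was 8.16% higher and 4.92% lower. Hpf1, which steers PARP1 and PARP2 to serine, was at 114 and 124 CPM, and Xrcc1, the scaffold of single-strand break repair, at 11.7 and 14.6 CPM. Timeless, a replication fork factor that binds PARP1, was at 5.17 and 7.73 CPM and had a log2 ratio of 0.58. Counts past the fold were 0 of 9 for other enzymes that remove ADP-ribose, 0 of 7 for NAD+ synthesis and 0 of 7 for the other PARP genes. Among those, Tiparp, a PARP induced by the aryl hydrocarbon receptor, stood at 95.7 and 118 CPM and Zc3hav1, the antiviral zinc finger protein, at 65.3 and 64.1 CPM. Of 3 drug pump genes, 2 were past the fold higher. Abcb1a, which encodes a P-glycoprotein known to export Olaparib, was at 0.86 and 3.25 CPM, a log2 ratio of 1.92 [1.60 to 2.26]. Its level was low in both libraries.

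The share of tumor-like cells with a UMI of a gene followed depth. Parp1 was seen in 28.4% and 68.3% of tumor-like cells with all UMIs, and in 3.42% [3.08 to 3.78] and 4.08% [3.38 to 4.88] after each cell was thinned to 1000 UMIs. For Parp14 the shares were 18.3% and 53.0% with all UMIs, and 2.26% [1.99 to 2.56] and 3.33% [2.69 to 4.06] after thinning. Thinning left out 117 and 56 tumor-like cells. Of the 40 pairs of a gene and a class, 26 had intervals that lay apart between the libraries with all UMIs and 2 after thinning. These were Parp14 in tumor-like cells and Parp10 in myeloid-like cells, at 1.12% [0.562 to 2.00] and 3.77% [2.97 to 4.71]. Among myeloid-like cells, thinning left out 809 and 191. The median neutrophil-like cell held 677 and 1895 UMIs, so most of those under Olaparib + LLY-283 were left out. The thinned myeloid-like cells thus differed in makeup between the libraries, and Parp10 was higher in neutrophil-like than in macrophage-like cells. The part of this makeup in the Parp10 shares was not tested.

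Within tumor-like cells, the interferon-linked genes followed other interferon-stimulated genes in both libraries. Cells were ordered by their UMIs of the interferon list, which holds none of the 10 genes, after thinning to 2000 UMIs, and were cut into 4 bins of 2570 or 2571 cells under Olaparib + LLY-283 and 689 or 690 under Combo. A bin is a range of cells and not a cell type. The summed list went from 1356 CPM in the lowest bin to 4365 CPM in the highest in the first library, and from 1659 to 5073 CPM in the second.

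Parp14 was at 12.4, 16.4, 19.3 and 45.8 CPM from the lowest to the highest bin under Olaparib + LLY-283, and the highest bin stood above the lowest by 1.88 [1.71 to 2.06] on the log2 scale. Under Combo it was at 17.3, 19.0, 26.0 and 62.1 CPM, a difference of 1.85 [1.71 to 1.98]. In both, the step from the third to the highest bin was larger than all earlier steps together. Parp9 went from 17.0 to 38.2 CPM and from 21.6 to 44.5 CPM, with log2 ratios of 1.17 and 1.05. Parp12 went from 23.5 to 51.8 CPM and from 26.4 to 46.7 CPM, with log2 ratios of 1.14 and 0.82. Parp10 went from 8.07 to 15.5 CPM and from 12.6 to 20.8 CPM, with log2 ratios of 0.95 and 0.73. These 4 genes were thus past 1.5-fold in both libraries, which made 8 of the 20 ratios computed, where 4.02% and 5.26% of all genes were past it higher and 3.34% and 4.25% lower.

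The other members lay within 1.5-fold across the interferon bins. Parp3 came nearest, with log2 ratios of 0.32 [0.16 to 0.48] and 0.49 [0.35 to 0.63]. Parp1 had ratios of 0.04 and -0.14, Parp2 of 0.01 and -0.19 and Parg of 0.16 and -0.10, so their signs differed between the libraries. Parp4, whose promoter held the response element core shown above, had ratios of 0.04 and 0.23, while Parp12, whose promoter window held no match, was among the 4 genes past the fold. Dtx3l, the partner of Parp9 that overlaps it, went from 13.2 to 27.0 CPM and from 16.5 to 28.7 CPM. Tiparp went the other way, with log2 ratios of -0.60 and -0.44, and Zc3hav1 had 0.39 in both. Parp11 had ratios of 3.59 [1.59 to 6.71] and 2.98 [1.48 to 4.94]. These rest on 2 and 4 UMIs in the lowest bin and 25 and 31 in the highest, where it stood at 0.88 and 0.95 CPM. The summed myeloid markers lay between 270 and 291 CPM over the bins of the first library and between 428 and 448 CPM over those of the second, and the median depth of the cells was alike across bins.

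**Figure D2:**
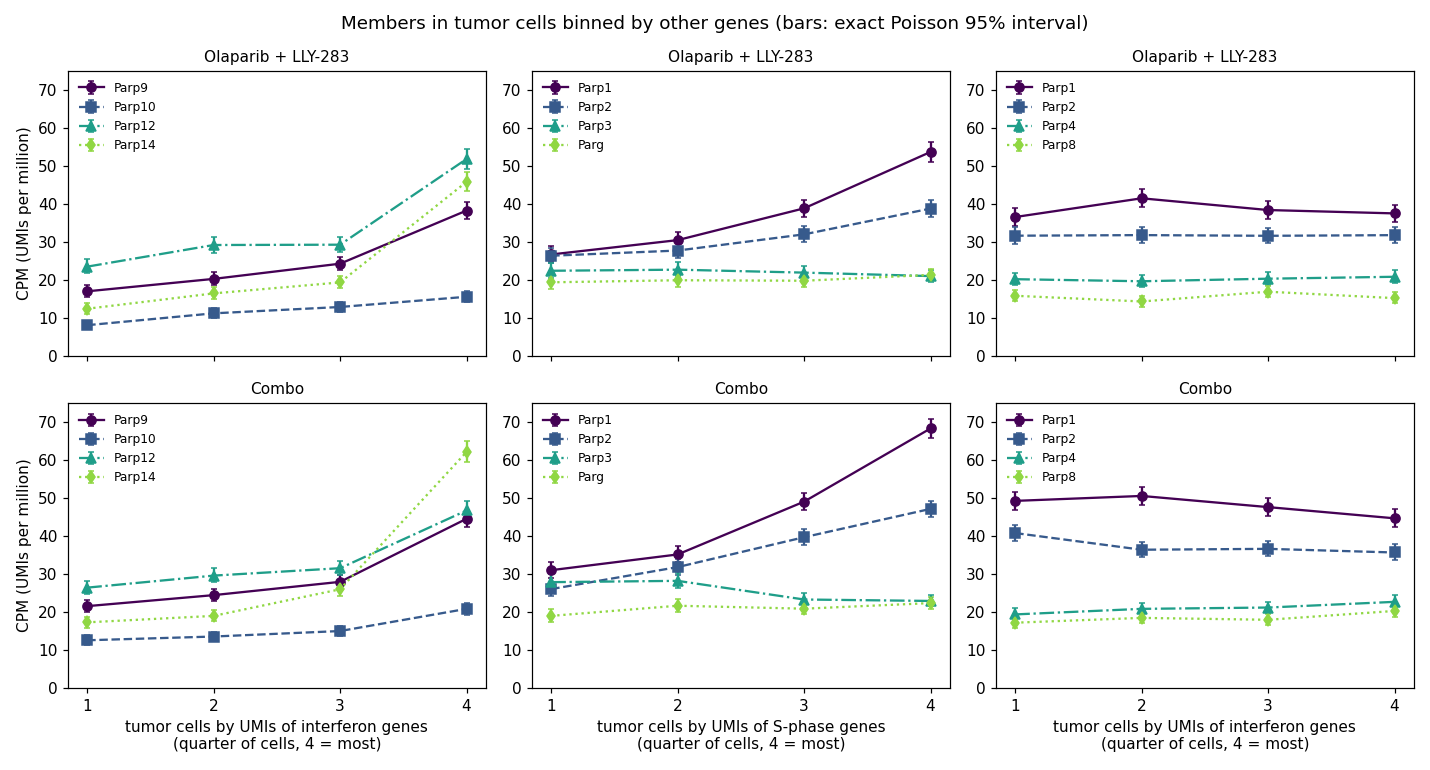
Levels in CPM over 4 bins of tumor-like cells, from fewest to most UMIs of a gene list, by library, with exact Poisson 95% intervals as bars. The left column shows Parp9, Parp10, Parp12 and Parp14 by interferon genes. The middle column shows Parp1, Parp2, Parp3 and Parg by S-phase genes. The right column shows Parp1, Parp2, Parp4 and Parp8 by interferon genes. Parp14 climbs to 45.8 and 62.1 in the highest interferon bin, and Parp1 to 53.6 and 68.3 in the highest S-phase bin.

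Parp1 and Parp2 followed the cell cycle instead. Tumor-like cells were binned in the same way by 34 S-phase genes, the genes of DNA replication. Parp1 was at 26.7, 30.4, 38.8 and 53.6 CPM from the lowest to the highest bin under Olaparib + LLY-283, a log2 ratio of 1.01 [0.88 to 1.14] between the ends. Under Combo it was at 31.0, 35.2, 49.0 and 68.3 CPM, a log2 ratio of 1.14 [1.03 to 1.25]. Parp1 was higher in each bin than in the one before it in both libraries. Parp2 went from 26.3 to 38.8 CPM and from 26.0 to 47.1 CPM, with log2 ratios of 0.56 [0.42 to 0.70] and 0.86 [0.73 to 0.98], so that it passed the fold under Combo and fell just short of it in the other library. Between 9.97% and 11.7% of all genes were past the fold higher, and between 5.99% and 9.47% lower. By 37 genes of G2 and mitosis, where 10.6% and 13.1% of all genes were past the fold higher and 7.73% and 9.84% lower, the ratios of Parp1 were 0.65 and 0.94 and those of Parp2 0.73 and 1.11. These 2 genes made the 7 ratios past the fold among the 40 computed for the cell cycle.

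Parg did not move with the S-phase bins beyond 1.5-fold, with log2 ratios of 0.14 [-0.03 to 0.31] and 0.24 [0.08 to 0.39]. Parp4 was lower in the highest S-phase bin, at log2 ratios of -0.33 and -0.56, and Parp14 had -0.16 and -0.41. Some partners of PARP1 were higher in S-phase-rich cells, among them Timeless with log2 ratios of 2.69 and 2.80 and Hpf1 with 0.67 and 0.85. Others were not, such as Lig3 with -0.02 and 0.03 and Dtx3l with -0.05 and -0.35. The depth of the cells moved with these bins: the median went from 7814 to 10766.5 UMIs under Olaparib + LLY-283 and from 39068 to 61188 UMIs under Combo. CPM divides by that depth, and the part of depth in the result was not tested.

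Among myeloid-like cells, Parp14 was the member furthest above tumor-like cells. Under Olaparib + LLY-283, where 24.9% of genes were past the fold higher in myeloid-like cells and 28.5% lower, Parp14 and Parp10 were higher, by 1.46 and 0.61 on the log2 scale, and Parp3 was lower, at -0.71. With cells thinned to 1000 UMIs the ratio of Parp10 was -0.12, but this left out most neutrophil-like cells, whose median was 677 UMIs. Under Combo, with 28.0% and 35.9% of genes, Parp14 was higher by 1.67 and Parp3 was lower. The other members lay within 1.5-fold, but under Combo the 2 members past it became 7 when thinned and 5 with equal weight per cell. The plot of levels relative to tumor-like cells divides this class into its main parts.

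In macrophage-like cells, Parp1 and Parp14 stood above tumor-like cells in both libraries. Parp1 was at 62.0 CPM [51.8 to 73.7] and 82.5 CPM [76.2 to 89.3], a log2 ratio over tumor-like cells of 0.69 [0.42 to 0.94] and 0.78 [0.66 to 0.90]. Parp14 was at 68.3 CPM [57.5 to 80.5] and 83.7 CPM [77.3 to 90.5], with ratios of 1.53 and 1.44. Parp3 was the only member past the fold lower, at 10.6 and 12.8 CPM and ratios of -1.06 and -0.98. Counting the genes with 20 UMIs expected in the smaller class, 16.0% and 22.5% were past the fold higher and 35.9% and 35.7% lower. Parp2, Parp4, Parp8, Parp9, Parp10, Parp12 and Parg lay within 1.5-fold of tumor-like cells in both. The cell-cycle lists were low in these cells: 37 and 36 of 37 genes of G2 and mitosis were past the fold lower than in tumor-like cells. Parp1 was thus higher in macrophage-like cells, in which these lists were lower, whereas within tumor-like cells it moved with them. Parp11, another PARP, was at 7.69 and 11.3 CPM here, against 0.34 and 0.42 CPM for the tumor-like class.

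Between the libraries, 0 of 10 members passed the fold in macrophage-like cells, where 10.0% of genes were higher and 7.24% lower. Parp1 had a log2 ratio of 0.41 [0.14 to 0.70] and Parp14 of 0.30 [0.03 to 0.57]. Parp9 was at 37.5 and 33.1 CPM, Parp10 at 12.0 and 11.1 CPM and Parp12 at 35.6 and 29.0 CPM. The same cluster held 98.2% and 99.0% of the macrophage-like cells.

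In neutrophil-like cells Parp14 and Parp10 stood above their tumor-like levels in both libraries, Parp14 as in macrophage-like cells. Parp1 and Parp2, among others, stood below theirs. Parp10, which adds single ADP-ribose units, was at 37.7 CPM [24.8 to 54.8] and 54.4 CPM [46.3 to 63.5], above macrophage-like cells by 1.65 [0.81 to 2.50] and 2.30 [1.91 to 2.70] on the log2 scale. Parp1 was at 19.5 CPM [10.7 to 32.8] and 18.1 CPM [13.6 to 23.7], below macrophage-like cells, at -1.67 and -2.19. Parp2 was at 19.5 and 13.3 CPM, with ratios over macrophage-like cells of -0.76 [-1.71 to 0.08] and -1.34 [-1.87 to -0.85]. Parp3 was at 20.9 and 9.92 CPM, with ratios of 0.99 [-0.07 to 2.00] and -0.37 [-1.02 to 0.25], so its sign differed between the libraries. Here 15.1% and 16.6% of genes with 20 UMIs expected in the smaller class were past the fold higher, and 29.5% and 48.0% lower. Parp3 and Parp10 fell short of that count under Olaparib + LLY-283, so the shares of that library leave them out. Against tumor-like cells, Parp10 was higher by 1.65 and 1.82 and Parp14 by 1.47 and 2.25, while Parp1 was lower at -0.98 and -1.41. The tumor-like level of Parp2 was 31.7 and 37.4 CPM, so Parp2 was lower as well. Of genes with 20 UMIs expected in the smaller class there, 7.99% and 14.8% were past the fold higher and 46.0% and 64.4% lower. A lower level, as of Parp1, was thus common among them. Parp10 and Parp14 fell short of that count under Olaparib + LLY-283, so the shares of that library leave them out. Plec, which shares bases with Parp10, went the other way. It was at 173 and 101 CPM in neutrophil-like cells, against 229 and 218 CPM in tumor-like cells.

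Free RNA was gauged by tumor genes. Sfn, Klk10 and Cst6, tumor genes kept out of the class markers, summed in neutrophil-like cells to 42.1% and 27.0% of their tumor-like level. For macrophage-like cells it was 17.6% and 10.8%. The median neutrophil-like cell held 677 and 1895 UMIs. In these cells Parp1 reached 50.8% [27.7 to 85.3] and 37.7% [28.2 to 49.4] of the tumor-like level, with intervals that overlapped those of the 3 tumor genes in the first library, [34.1 to 51.4], and in the second, [23.5 to 31.0]. Krt8 was at 35.8% [31.1 to 41.0] and 22.9% [21.0 to 24.9], and its interval lay below that of Parp1 under Combo. Krt8 is a class marker whose UMIs the class rule limited in these cells, so its level cannot gauge free RNA. Parp1 in neutrophil-like cells was near the level of the 3 tumor genes kept out of the markers, and the part of free RNA in it was not tested. Parp10 reached 315% and 352% and Parp14 277% and 477%, above the level of these genes.

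**Figure D3:**
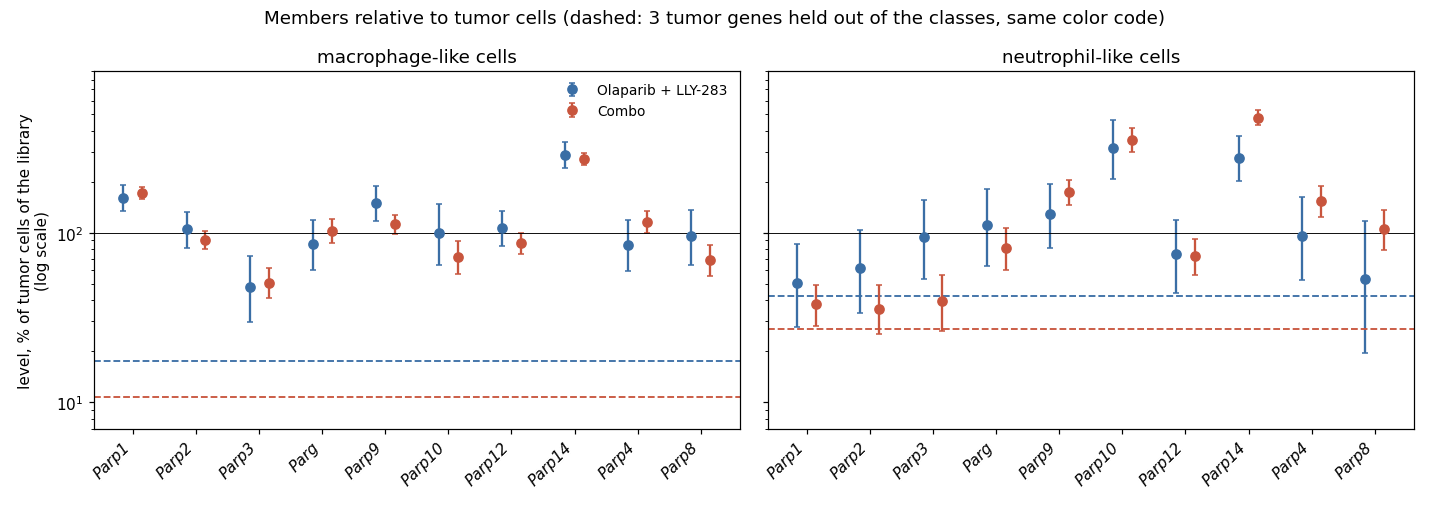
Level of each of the 10 genes in macrophage-like and neutrophil-like cells as a percentage of its level in tumor-like cells of the same library, on a log axis, with exact 95% intervals as bars and dashed lines for 3 tumor genes that mark free RNA. In neutrophil-like cells Parp1 at 50.8% and 37.7% lies near the dashed lines at 42.1% and 27.0%, and Parp14 at 277% and 477% lies above them.

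Parp14 also differed between the libraries in neutrophil-like cells. It was at 65.6 CPM [48.2 to 87.3] from 47 UMIs under Olaparib + LLY-283 and at 147 CPM [134 to 162] from 430 UMIs under Combo, a log2 ratio of 1.16 [0.73 to 1.63]. Its share of cells after thinning to 1000 UMIs was 5.47% [2.23 to 10.9] and 12.1% [10.4 to 14.0], from 128 and 1263 cells deep enough to thin, and 5.57% and 20.2% with all UMIs. Within 1 cluster of these cells the ratio was 0.27 to 0.77 over 5 clusterings, as given after these values. In all, 4 members were past the fold higher and 1 lower, where 18.2% of 8979 genes were higher and 30.4% lower. Beside Parp14 these were Parp9 at 32.1 and 51.0 CPM, with a log2 ratio of 0.67 [0.03 to 1.37], Parp4 at 19.5 and 32.2 CPM, with 0.72 [-0.10 to 1.64], and Parp8 at 8.38 and 19.5 CPM from 6 and 57 UMIs, with 1.22 [0.01 to 2.72]. Under Olaparib + LLY-283, 5 cells held 83.3% of the UMIs of Parp8. The member past the fold lower was Parp3, at 20.9 and 9.92 CPM, and Parp10 lay within it at a log2 ratio of 0.53 [-0.07 to 1.17].

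The interferon list moved the same way in neutrophil-like cells. It summed to 3771 and 5336 CPM, and of 37 list genes compared 19 were past the fold higher and 3 lower, with a median log2 ratio of 0.60 against -0.20 for all genes. The list of G2 and mitosis summed to 2738 and 2135 CPM, and 17 of 37 genes were past the fold lower. Tiparp was at 334 and 537 CPM and Dtx3l at 27.9 and 44.8 CPM, both past the fold higher.

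Different clusters held most neutrophil-like cells of each library. The cluster with most of those under Olaparib + LLY-283 held 620 and 134 cells, with medians of 641 and 775.5 UMIs, and another held 30 and 1232 cells, with medians of 962 and 1979.5 UMIs. Within the first cluster Parp14 was at 84.2 and 102 CPM from 37 and 14 UMIs, a log2 ratio of 0.27 [-0.73 to 1.19], which is within the fold. This value depended on the clustering. With 15 or 30 neighbors, or with another seed, the corresponding cluster held 589 to 612 cells under Combo, and the ratio of Parp14 was between 0.74 and 0.77 in all 4 of these runs. Over the 5 clusterings, Parp9 had a ratio of 0.57 to 0.76 and Parp10 of 0.14 to 0.35. The part of the makeup and depth of the clusters in the Parp14 ratio was not tested further.

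**Figure D4:**
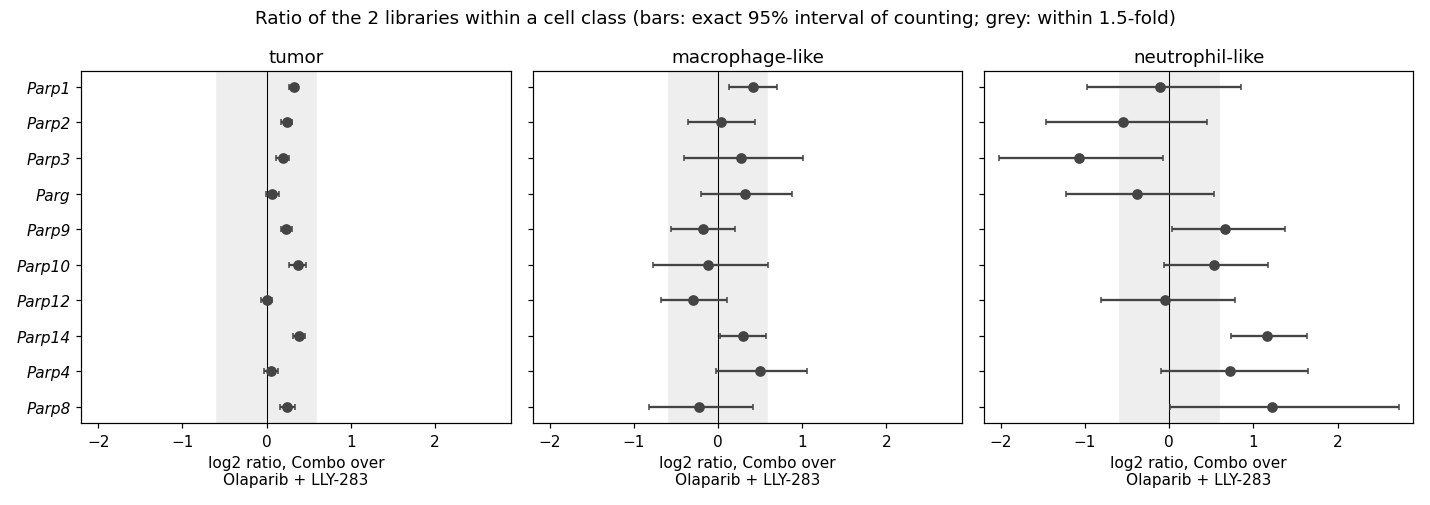
Log2 ratio of Combo over Olaparib + LLY-283 for each of the 10 genes within tumor-like, macrophage-like and neutrophil-like cells, with exact 95% intervals of counting as bars and a grey band for ratios within 1.5-fold. In tumor-like cells all 10 lie in the band, and in neutrophil-like cells Parp14 stands at 1.16.

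Within each myeloid type Parp14 also moved with the interferon list. Cells were split into a lower and an upper set of equal size by their UMIs of that list after thinning to 500 UMIs. The counts were low, with 0 or 1 list UMI in the lower sets and medians of 2 or 3 in the upper sets. Cells with 1 list UMI fell in both sets. The share of all genes past the fold is not given for these sets. The sets also differed in summed myeloid markers. In neutrophil-like cells these went from 63779 to 79992 CPM under Olaparib + LLY-283 and from 105438 to 111755 CPM under Combo. In macrophage-like cells they went from 31473 to 28013 CPM and from 32228 to 30841 CPM. The part of this difference in the ratios was not tested. In neutrophil-like cells Parp14 was at 31.6 CPM in the lower and 104 CPM in the upper set under Olaparib + LLY-283, a log2 ratio of 1.71 [0.73 to 2.80], and at 50.3 and 245 CPM under Combo, a ratio of 2.28 [1.92 to 2.67]. In macrophage-like cells it was at 53.0 and 82.9 CPM, a ratio of 0.65, and at 48.9 and 124 CPM, a ratio of 1.34. Parp9 and Parp12 had ratios over 1 in both types and both libraries, Parp12 from as few as 3 UMIs in the lower set of neutrophil-like cells. Parp10 had 0.77 and 1.12 in macrophage-like cells, and -0.37 [-1.62 to 0.83] and 0.98 [0.49 to 1.48] in neutrophil-like cells. Parp4 turned from 1.32 [0.22 to 2.54] to -0.69 [-1.15 to -0.24] between the libraries in macrophage-like cells. Parp1 had 0.01 and -0.08 in macrophage-like cells, as flat as in the interferon bins of tumor-like cells.

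Over all myeloid-like cells, Parp14 was the 1 member past the fold between the libraries, at 65.0 and 98.4 CPM and a log2 ratio of 0.60 [0.38 to 0.82], where 11.6% of genes were higher and 8.84% lower. It lay near the threshold, and over the alternatives the ratio ran from 0.52 to 0.84. Neutrophil-like cells outnumbered macrophage-like cells under Combo and were fewer under Olaparib + LLY-283, so the class differed in makeup by cells. A CPM weighs cells by their UMIs, and by UMIs the makeup was more alike. Neutrophil-like cells held 716217 of 3109806 myeloid-like UMIs under Olaparib + LLY-283 and 2922845 of 11442482 under Combo.

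Lymphoid-like and stromal-like cells were few. Under Olaparib + LLY-283 Parp14 had 0 UMIs in 68 lymphoid-like cells, and under Combo 34 UMIs in 52 cells, or 101 CPM [69.8 to 141]. Set against a floor of 3 UMIs in the first library this was 2.73-fold higher, where 21.4% of genes were past the fold higher and 16.6% lower. That value leaves out the counting error of the 34 UMIs and is no lower limit. Parp9, from 4 and 18 UMIs, was at 49.3 and 53.4 CPM, a log2 ratio of 0.11 [-1.49 to 2.14]. The other 8 members had fewer than 20 UMIs over both libraries and were not compared. In stromal-like cells Parp2 at 17.4 and 27.5 CPM and Parp9 at 34.8 and 22.8 CPM were past the fold, with log2 ratios of 0.66 [-0.17 to 1.55] and -0.61 [-1.33 to 0.11] whose intervals held 0, against 11.7% of genes higher and 6.83% lower. Among 193 and 58 fibroblast-like cells, Parp9 was at 38.6 and 21.1 CPM, a log2 ratio of -0.87 [-1.65 to -0.10], where 11.4% of genes were past the fold higher and 7.16% lower. Tumor genes that mark free RNA were at 61.3% and 10.1% of the tumor-like level in lymphoid-like and at 35.4% and 12.9% in stromal-like cells.

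Over the classes and libraries together, Parp14 and Parg had different companions. Likeness was the Pearson correlation of log2(CPM + 10) over 12 points, 6 cell classes in each of 2 libraries, among 10216 genes with at least 1000 UMIs. The points share libraries, depth and free RNA, and the values are descriptions. Among the genes most like Parp14 were Stxbp5 at 0.97, the RNA helicase gene Ddx60 at 0.96, and Trp53bp2 and Tmem170b at 0.94. Among those most like Parp1 were 2610001J05Rik at 0.95, Cmpk1 at 0.93, Ten1 at 0.92 and Itm2b at 0.90, and those most like Parg were Arfgap2 at 0.92, Decr1 at 0.89, Suds3 at 0.87, Dld at 0.86 and Abt1 at 0.85. Among the members, Parp14 was most like Parp4, at 0.80, and stood at -0.51 with Parp12, although both moved with the interferon list within tumor-like cells.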

How the data were processed

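Tumor suspensions were sequenced with the 10× Genomics 3′ chemistry. The authors deposited 1 table of raw UMI counts for each library, made by Cell Ranger on mm10 and not normalized. No cell annotation was used. CPM values were computed here.

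The filter took out cells with fewer than 200 genes or with 20% or more mitochondrial UMIs and left 16029 and 5956 cells. Scrublet's automatic threshold called 0 doublets in both libraries, so the highest scores were removed at the expected rate of 0.8% per 1000 cells, 1864 and 252 cells. This cut was chosen after seeing the data. A cell entered the myeloid-like class with at least 0.5%, or the lymphoid-like or stromal-like class with at least 0.1%, of its UMIs from that marker list. It also needed at least 3 of these UMIs and a 2-fold margin over the other lists. Its tumor markers had to be fewer than 3 UMIs or less than 0.04% of its UMIs, so the percentage did not limit cells with fewer than 3. Tumor-like cells had a tumor marker UMI and were below all cuts by 2-fold. Of 25 stromal markers, 19 were used, since the others were expressed by tumor cells. Macrophage-like, neutrophil-like and lymphoid-like cells, with a median depth below that of their library, had 3 to 8 markers of their own among the 10 leading genes by fold, and tumor-like cells had 2 and 0. The same markers had set the classes, so this count cannot serve as support for the class names. Clusters were made by the Leiden method at resolution 1.3 with 20 neighbors, 30 components and 2000 variable genes, and neutrophil-like cells were also clustered with 15 and 30 neighbors and other seeds.

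All 10 members are named, with genes of fixed lists by counts. Some genes that the rule on likeness names are not reported here. The members and the lists were chosen with earlier results of these data known. Background shares count all genes with at least 20 UMIs over both sides or, where said, genes with 20 UMIs expected in the smaller side. Alternatives changed the filters, doublets, class rule, weighting, scaling and depth, and those for macrophage-like and neutrophil-like cells and for the tumor cluster were chosen after seeing the data. Scripts were tested on simulated data. The work used scanpy 1.11.5 and leidenalg 0.10.2 for clusters, scipy 1.17.1 for intervals, and pandas 2.3.3, numpy 2.4.6 and matplotlib 3.10.9 under Python 3.11.15.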

Additional observations from a re-analysis of the deposited data

Results flagged for a closer look

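Parp9 went opposite ways between the libraries in a pair of cell types. It had a log2 ratio of Combo over Olaparib + LLY-283 of 0.67 [0.03 to 1.37] in neutrophil-like cells and of -0.87 [-1.65 to -0.10] in fibroblast-like cells, from 38.6 and 21.1 CPM over 193 and 58 cells. The difference between the types was not tested, and 5 cells held 38.2% and 44.4% of the Parp9 UMIs of fibroblast-like cells, under Olaparib + LLY-283 and Combo. In stromal-like cells as a whole the sign of the Parp9 ratio depended on the weighting of cells.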

How the results depend on the processing

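The 8 ratios past 1.5-fold over interferon bins and the 7 over cell-cycle bins stayed within 1.5 times that number with scoring at 1000 UMIs, 3 bins or doublets kept. Thinned to 1000 UMIs, 1 member (Parp14) passed the fold in tumor-like cells instead of 0, 3 instead of 1 in myeloid-like cells between libraries, and 7 instead of 2 in myeloid-like over tumor-like cells of the Combo library. With equal weight per cell these last counts were 3 and 5, and the count was 0 instead of 1 in lymphoid-like and 7 instead of 2 in stromal-like cells. The 1 myeloid-like call was lost, to 0, with a stricter margin between classes and, also to 0, without mitochondrial and ribosomal protein UMIs. Without a minimum of UMIs 7 members passed in lymphoid-like cells, and without the 5 cells richest in a gene 4 in stromal-like cells. Intervals of shares lay apart for 26 pairs with all UMIs and for 1 when thinned to 2000 UMIs, instead of 2. Parp9 in stromal-like cells changed sign, to 1.00 with equal weight per cell and 0.23 when thinned, as did Parp10 under Olaparib + LLY-283 in the myeloid-like over tumor-like ratio when thinned, at -0.12. The cause was not tested. Parp14 in neutrophil-like cells had a ratio of 0.27 to 1.43 between libraries, the lowest being within the first cluster, with 134 cells under Combo, where 4 other clusterings gave 0.74 to 0.77. Removing mitochondrial and ribosomal protein UMIs shifted neutrophil-like over tumor-like ratios by -0.16 and -0.24. Of the other log2 ratios of single genes, 879 stayed within the interval of the reported value and 92 did not.

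No paired analysis was possible because each group had 1 pooled library. Lymphoid-like values rest on 0 to 34 UMIs of a member in a library, and no value here separates the antibody from the pool of mice.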

Other observations

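In macrophage-like cells 2 and 3 of 7 genes of NAD+ synthesis were past 1.5-fold higher than in tumor-like cells, and 0 were lower, with median log2 ratios of 0.23 and 0.54 against 0.00 and -0.08 for all genes, under Olaparib + LLY-283 and under Combo. Nampt, the rate-limiting enzyme of NAD+ salvage, was at 133 and 191 CPM in neutrophil-like cells. The shares over all genes with 20 UMIs expected in the smaller class were 16.0% and 22.5% higher and 35.9% and 35.7% lower. The counts of list genes instead took genes with 20 UMIs over both classes, so the shares do not cover the same set of genes. Of 3 drug pump genes, 3 and 2 were past 1.5-fold higher and 0 and 1 lower in macrophage-like than in tumor-like cells, with a sum of 19.7 and 28.2 CPM against 4.51 and 7.33 CPM. The drug pump genes fell short of 20 UMIs expected under Olaparib + LLY-283, so the shares of that library leave them out.

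Across the G2 and mitosis bins of tumor-like cells, Tdp1, which clears protein and ADP-ribose adducts from DNA ends, had log2 ratios of 1.36 and 1.28, and Xrcc1 of 0.93 and 1.02. Other genes of the same lists did not: Macrod1 had -0.70 and -1.01, and Dtx3l -0.20 and -0.13. Over all genes, 10.6% and 13.1% were past 1.5-fold higher in these bins and 7.73% and 9.84% lower.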
